A study of Mus musculus with 9 samples.

Results

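Foxp3, Il2ra, Il2rb, Lrrc32, Nrp1 and Gpr83, 6 genes that mark the regulatory T cell (Treg) lineage, were followed in thymocytes sorted to lack surface CD25. The genes were chosen by symbol and make up 6 of the 41978 genes listed. All 6 passed the filter on low values (a TPM, a level scaled by gene length and library total, of at least 1 in at least 3 samples), as did 30693 genes overall. The data were bulk RNA-seq of semi-mature CD4 single-positive (SP4) thymocytes from Nur77-eGFP BAC Tg mice on a C57BL/6 background, in which a transgene reports transcription of Nr4a1, a gene switched on by T cell receptor signals. Live CD25- cells that were CD69+, CD24+, CD4+ and CD8- were sorted as GFPlo, GFPmed and GFPhi, each holding about 10% of cells at the bottom, middle or top of GFP brightness, with 3 samples per group and 10000 cells per sample. All groups carried the reporter and received no treatment, mice of both sexes were used, and ages were given only as a range for the whole study. The gate used no Foxp3 reporter, and the text of the study gives its CD24 setting both as low and as high. The labels number the samples of each group as biological replicates 1 to 3. Nothing in the labels says which samples came from the same animal, so p-values measure the spread between these samples.

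Treg restrain immune responses and arise in part from thymocytes whose receptors bind self-antigen. Foxp3 is the transcription factor that defines the lineage. Il2ra encodes CD25, the alpha chain that gives the interleukin-2 receptor its high affinity, and Il2rb encodes the signalling beta chain, through which IL-2 activates STAT5. Lrrc32 encodes GARP, which tethers latent TGF-beta to the surface of activated Treg. Nrp1 encodes neuropilin-1, a semaphorin co-receptor abundant on thymic Treg, and Gpr83 encodes a G protein-coupled receptor of the Treg signature.

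The sorted cells had the RNA of SP4 thymocytes and graded reporter gene expression. Total reads on genes ran from 7465552 to 14943774 per sample. Nr4a1 had 217 ± 32.1 TPM (SD, n = 3) in GFPlo, 374 ± 28.6 in GFPmed and 840 ± 75.0 in GFPhi samples. The log2 fold change of GFPhi against GFPlo was 1.95 for Nr4a1, 1.97 for Nr4a3 and 1.10 for Nr4a2, and the adjusted p of Nr4a2 was 0.0438 from limma. The call of Nr4a2 is fragile, since limma lost it with the replicate block (0.0863), with median-of-ratios scaling (0.122), quantile normalization (0.113), no filter on low values (0.059) or the 2 groups fitted alone (0.166), and without any 1 sample other than GFPhi replicate 1 (0.062 to 0.142), while limma-voom on reads kept it (0.0101). Cd4, Cd3d and Cd3e were abundant in all groups, and Cd4 averaged 582, 562 and 474 TPM. Of 10 SP4 markers, 1 was called between GFPhi and GFPlo, Cd5, which was higher (log2 fold change 1.61, adjusted p = 0.000188 from limma). The sort marker Cd69 averaged 375, 366 and 216 TPM, without overlap of GFPhi and GFPlo but under the fold limit (-0.79, adjusted p = 0.0142 from limma). Of 3 CD8 lineage markers, Cd8a was called lower in GFPhi (-1.12, adjusted p = 0.0158 from limma) and averaged 16.7, 16.7 and 7.15 TPM. The other 2 were under the fold limit and went in opposite directions, Cd8b1 with -0.79 (adjusted p = 0.00646 from limma) and Runx3 with 0.96 (adjusted p = 0.0158 from limma). Of 4 gamma-delta, NKT and NK cell markers tested, Sox13 was called lower (-1.88, adjusted p = 0.0135 from limma), with a summed TPM for the 5 measured of 27.7 to 29.6 in GFPlo, 22.5 to 27.6 in GFPmed and 19.7 to 29.8 in GFPhi. The summed TPM of 6 B cell markers was 23.9 to 33.8 in GFPlo, 26.4 to 36.2 in GFPmed and 13.5 to 35.8 in GFPhi. For 8 myeloid markers it was 18.3 to 26.4, 18.4 to 20.9 and 16.2 to 25.4. For the 5 thymic epithelial markers measured it was 3.86 to 8.96, 6.22 to 9.21 and 10.3 to 13.2. No marker on these lists was at 0 in all samples. Of the epithelial markers Epcam was higher in GFPhi (log2 fold change 1.38, adjusted p = 0.012 from limma) while Foxn1 and Aire averaged under 1 TPM in each group. The part of these markers in the results below was not tested, and in bulk samples a change in the number of cells expressing a gene cannot be told apart from a change in RNA per cell.

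The start regions of the 4 genes found in the promoter table are shown as a description. A link between these sequences and the courses of the genes across the GFP groups was not tested. Each run is the 250 bases before a RefSeq start site on the plus strand of GRCm38.p6, and capitals mark matches to a motif. The windows are chrX:7580233-7580482 for the second of the 2 Foxp3 starts, chr2:11642542-11642791 for Il2ra, chr8:128358823-128359072 for Nrp1 and chr9:14859960-14860209 for Gpr83.
Foxp3: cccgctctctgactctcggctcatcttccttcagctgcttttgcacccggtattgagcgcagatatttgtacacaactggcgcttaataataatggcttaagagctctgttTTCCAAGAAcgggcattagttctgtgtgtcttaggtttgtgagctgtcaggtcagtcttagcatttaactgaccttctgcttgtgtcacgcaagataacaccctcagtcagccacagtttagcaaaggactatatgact
Il2ra: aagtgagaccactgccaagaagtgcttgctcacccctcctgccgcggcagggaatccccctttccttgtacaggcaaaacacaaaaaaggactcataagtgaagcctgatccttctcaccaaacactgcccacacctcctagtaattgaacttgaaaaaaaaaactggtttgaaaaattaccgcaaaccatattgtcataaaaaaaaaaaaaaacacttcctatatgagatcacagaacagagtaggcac
Nrp1: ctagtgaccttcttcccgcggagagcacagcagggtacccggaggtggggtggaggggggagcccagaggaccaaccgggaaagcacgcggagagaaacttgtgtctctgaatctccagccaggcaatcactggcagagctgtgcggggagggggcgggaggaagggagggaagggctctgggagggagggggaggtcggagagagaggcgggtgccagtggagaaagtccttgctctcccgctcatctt
Gpr83: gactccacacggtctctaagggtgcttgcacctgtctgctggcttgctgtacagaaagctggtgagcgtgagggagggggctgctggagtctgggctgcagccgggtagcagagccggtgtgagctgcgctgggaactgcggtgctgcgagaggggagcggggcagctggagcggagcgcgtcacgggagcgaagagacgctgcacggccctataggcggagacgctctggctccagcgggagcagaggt
On both strands the windows were searched for the Nr4a motif AAAGGTCA, the STAT5 motif TTCNNNGAA and the forkhead motif TGTTTAC. The Foxp3 window shown held 1 STAT5 motif and the other 3 windows shown held none of the motifs. The window of the first Foxp3 start, chrX:7579426-7579675, which is not shown, also held none. Both Foxp3 windows and the Nrp1 window lie inside the gene limits given below. Of 32851 promoter windows of the same length, 7.02% held the STAT5 motif, 1.336% the Nr4a motif and 3.17% the forkhead motif. The windows also differed in base composition, with a GC content of 46.0% for the Foxp3 window shown, 37.6% for the other Foxp3 window and 42.4% for Il2ra against 64.4% for Nrp1 and 66.8% for Gpr83.

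Across the GFP groups the 6 genes followed different courses. Between GFPhi and GFPlo, Foxp3, Il2ra and Il2rb were higher in GFPhi, so 3 of the 6 genes were called higher against 1.26% of all genes tested, and none was called lower (background 0.404%). To be called, a gene had to differ by 1 or more on the log2 scale, in either direction, with an adjusted p of at most 0.05 from limma on log2(TPM + 1). Changes of genes with low TPM come out too small on this scale. The GFPhi and GFPlo samples did not overlap for any of the 6 genes, with 5 higher in GFPhi and Nrp1 lower. Among all genes tested, 8.26% were higher and 9.92% lower without overlap. The 6 genes, and the lists given below, were chosen with earlier results of these data known. Their counts beside these shares are a description. The median log2 fold change of the 6 genes was 1.18, and that of all genes tested was -0.087. The 3 comparisons share samples, and their values are given side by side without a test of one against another.

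**Figure D1:**
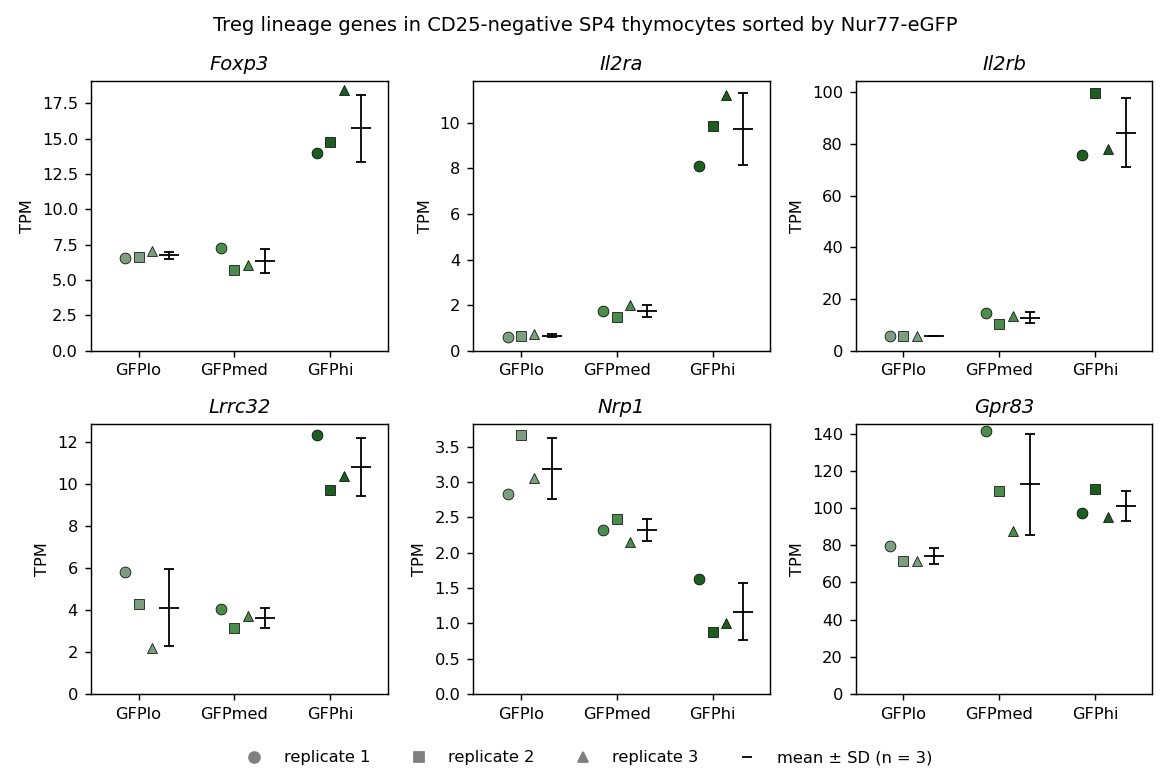
TPM of each of the 6 genes (y axis, from 0) in the 3 GFPlo, 3 GFPmed and 3 GFPhi samples, with the mean and SD beside the points. Foxp3 and Lrrc32 overlap between GFPlo and GFPmed and lie higher in GFPhi, Il2ra and Il2rb step up at both stages, Nrp1 steps down at both, and Gpr83 is lowest in GFPlo.

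Foxp3 lies on chromosome X from 7573644 to 7595245 on the plus strand. It had 6.57, 6.65 and 7.04 TPM in the GFPlo samples, 7.27, 5.69 and 6.03 TPM in the GFPmed samples and 13.95, 14.8 and 18.4 TPM in the GFPhi samples. The lowest GFPhi sample was above all GFPlo and GFPmed samples, while GFPlo and GFPmed overlapped. Mean TPM was 2.33-fold higher in GFPhi than in GFPlo, with a log2 fold change of 1.10 (95% confidence interval 0.73 to 1.47, adjusted p = 0.00987 from limma). GFPmed differed from GFPlo by -0.09 (-0.46 to 0.29, adjusted p = 1 from limma). GFPhi was above GFPmed by 1.19 (0.81 to 1.56, adjusted p = 0.0134 from limma). That call is close to the threshold, and with GFPhi and GFPmed fitted alone the adjusted p was 0.0654 from limma. It was lost without GFPmed replicate 2 (adjusted p = 0.073 from limma), GFPmed replicate 3 (0.067) or GFPhi replicate 3 (0.063). Without GFPhi replicate 3, the highest sample, Foxp3 was 0.99 above GFPlo and no longer met the fold limit.

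The Foxp3 count rests on 111 to 140 reads in GFPlo, 102 to 236 in GFPmed and 351 to 399 in GFPhi samples. Its 4.58 kb of exons overlap those of Ppp1r3f, Flicr, Ccdc22 and Gm36995, and the library kit does not mark strand. The overlaps sum to 2082 bases, added gene by gene, so a base shared with 2 of these genes counts more than once. Flicr, a noncoding RNA at the Foxp3 locus, averaged 0.504, 1.20 and 1.64 TPM over GFPlo, GFPmed and GFPhi (adjusted p = 0.244 from limma between GFPhi and GFPlo). Ppp1r3f averaged 1.11, 1.27 and 2.66 TPM (adjusted p = 0.0751 from limma), and Ccdc22 averaged 1.24, 0.862 and 2.47 TPM (adjusted p = 0.328 from limma). These neighbours stayed under 4 TPM in all samples. Reads that belong to 2 overlapping genes were not told apart, and whether they were counted or dropped is not known.

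Il2ra, which encodes the marker that the sort excluded, lies on chromosome 2 from 11642807 to 11693193. It had 0.606, 0.648 and 0.741 TPM in GFPlo, 1.74, 1.497 and 2.01 TPM in GFPmed and 8.11, 9.85 and 11.2 TPM in GFPhi samples. The groups were in the order of GFP with no overlap. In reads this was 15 to 21 per GFPlo sample, 44 to 83 per GFPmed sample and 323 to 357 per GFPhi sample. The mean was 14.6-fold higher in GFPhi than in GFPlo, and the log2 fold change was 2.68 (2.21 to 3.15, adjusted p = 0.000491 from limma). The GFPlo reads did not exceed a level of stray reads estimated below from olfactory and vomeronasal receptor genes, so the size of this fold is uncertain. The step from GFPlo to GFPmed, 0.72 (0.25 to 1.19), did not pass (adjusted p = 0.686 from limma), while the step from GFPmed to GFPhi, 1.96 (1.49 to 2.43), did (adjusted p = 0.00454 from limma).

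The second receptor chain, Il2rb, is on the minus strand of chromosome 15 from 78479256 to 78495271. Its GFPlo samples had 5.80, 5.74 and 5.68 TPM, its GFPmed samples 14.5, 10.3 and 13.4 TPM and its GFPhi samples 75.6, 99.6 and 77.8 TPM. No group overlapped another, and the GFPlo samples were nearly equal. Mean TPM was 14.7-fold higher in GFPhi than in GFPlo, with a log2 fold change of 3.65 (3.29 to 4.02, adjusted p = 4.56e-05 from limma). Mean TPM of Il2ra was 14.6-fold higher, but its GFPlo level was at or under the level estimated for stray reads. The folds of Il2rb and Il2ra therefore cannot be matched. On the log2(TPM + 1) scale the change of Il2ra is also held down by the pseudocount. GFPmed was 1.01 above GFPlo (0.65 to 1.38, adjusted p = 0.154 from limma), and GFPhi was 2.64 above GFPmed (2.27 to 3.003, adjusted p = 0.00044 from limma). Il2rg, the shared gamma chain of the receptor, averaged 1696, 1665 and 1466 TPM and did not pass (log2 fold change -0.21, adjusted p = 0.428 from limma).

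Lrrc32, on chromosome 7 from 98489283 to 98502181, had 5.84, 4.31 and 2.21 TPM in GFPlo, 4.07, 3.12 and 3.70 TPM in GFPmed and 12.4, 9.71 and 10.4 TPM in GFPhi samples. All GFPhi samples lay above all others, but the GFPlo samples were spread widely and enclosed the GFPmed samples. The log2 fold change of GFPhi against GFPlo was 1.27 (0.60 to 1.94) and missed the threshold (adjusted p = 0.058 from limma). On whole reads, 32 to 74 per GFPlo sample and 169 to 252 per GFPhi sample, limma-voom gave 1.53 with an adjusted p of 0.0026. It was also called without GFPlo replicate 1 (log2 fold change 1.51, adjusted p = 0.0419 from limma).

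Nrp1, on chromosome 8 from 128358604 to 128503363, was the only one of the 6 genes with its lowest values in GFPhi. It had 2.83, 3.67 and 3.06 TPM in GFPlo, 2.32, 2.47 and 2.15 TPM in GFPmed and 1.62, 0.869 and 0.997 TPM in GFPhi samples. The groups lay in the reverse order of GFP with no overlap, and mean TPM was 2.74-fold higher in GFPlo than in GFPhi. The log2 fold change was -0.96 (-1.45 to -0.47, adjusted p = 0.0508 from limma), which met neither limit. The TPM of this gene was divided by 80.7 kb, the mean span of its transcripts with introns, against 9.79 kb of exons, and its low TPM rested on 129 to 483 reads per sample. With a pseudocount of 0.1 the log2 fold change was -1.42 (adjusted p = 0.0544 from limma). On reads, limma-voom gave -1.48 (-1.91 to -1.04, adjusted p = 0.00012), and TPM recomputed on exonic length gave -1.341 (adjusted p = 0.0113 from limma). On reads, 5 of the 6 genes were called between GFPhi and GFPlo, 4 higher and 1 lower, against backgrounds of 1.6% higher and 0.472% lower.

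Gpr83, on chromosome 9 from 14860210 to 14870789, differed least between GFPhi and GFPlo. It had 79.5, 71.8 and 71.6 TPM in GFPlo, 142, 109 and 87.8 TPM in GFPmed and 97.7, 110 and 95.4 TPM in GFPhi samples. Both brighter groups lay above GFPlo without overlap, and the GFPmed samples enclosed the GFPhi samples. The log2 fold change was 0.57 for GFPmed against GFPlo (0.20 to 0.94, adjusted p = 0.688 from limma) and 0.44 for GFPhi against GFPlo (0.07 to 0.81, adjusted p = 0.255 from limma). GFPhi differed from GFPmed by -0.13 (-0.50 to 0.24, adjusted p = 0.9 from limma). None of these met the fold limit.

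**Figure D2:**
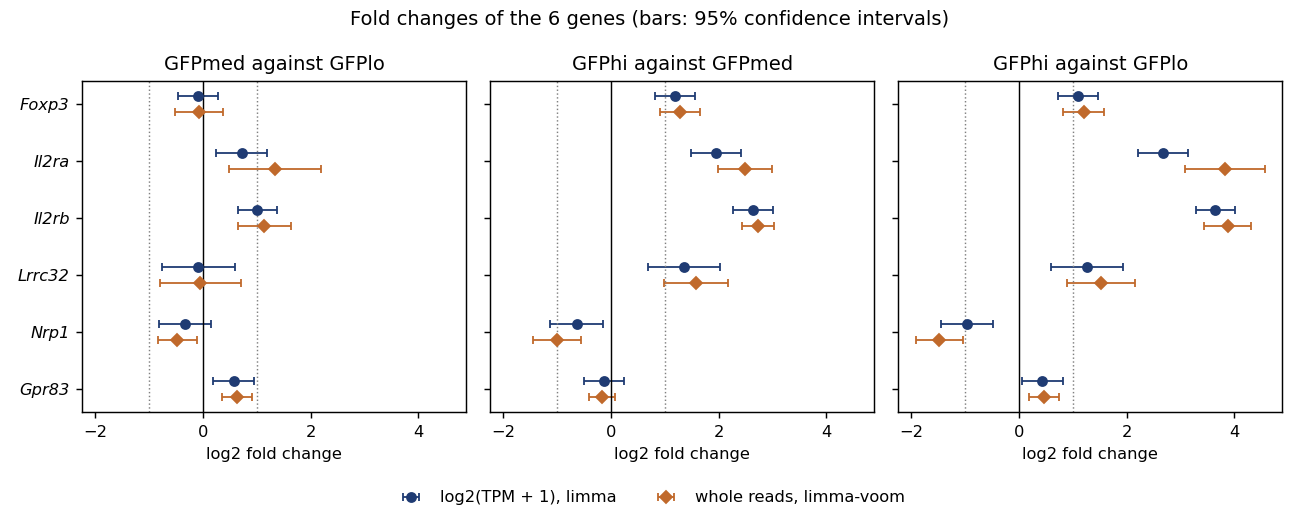
Log2 fold change (x axis) of the 6 genes in the 3 comparisons of groups, from limma on log2(TPM + 1) (circles) and from limma-voom on whole reads (diamonds), with 95% confidence intervals and dotted lines at the fold limit. Both scales put each gene on the same side of 0, and between GFPhi and GFPlo the reads moved Il2ra from 2.68 to 3.83 and Nrp1 from -0.96 to -1.48.

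The intermediate group was tested against each neighbour. Its samples did not overlap those of GFPlo for Il2ra, Il2rb and Gpr83, which were higher, and for Nrp1, which was lower, against 5.55% and 4.7% of all genes. The samples of GFPhi and GFPmed did not overlap for Foxp3, Il2ra, Il2rb and Lrrc32, higher in GFPhi, and for Nrp1, lower, against 7.11% and 9.41%. Between GFPmed and GFPlo, 0 of the 6 genes were called by limma, against 0.0554% of all genes called higher and 0.00326% lower. The unadjusted p from limma was under 0.05 for 3 of them. The share of all genes at that limit was not counted, so this number says nothing about the 6 genes as a set. On reads limma-voom also called 0 (backgrounds 0.059% and 0.00328%). With the authors' size factors limma-voom called 1, Il2rb (log2 fold change 1.16, adjusted p = 0.03). Between GFPhi and GFPmed, Foxp3, Il2ra and Il2rb were called higher (3 of 6, background 0.541%) and 0 lower (0.15%). On reads, limma-voom also called Lrrc32 higher and Nrp1 lower, against backgrounds of 0.852% and 0.252%. In log2(TPM + 1), GFPmed stood at 26.9% of the way from GFPlo to GFPhi for Il2ra, 27.7% for Il2rb and 34.5% for Nrp1. It stood at -7.89% for Foxp3, -6.41% for Lrrc32 and 130% for Gpr83. A direct test asked whether the step from GFPmed to GFPhi differed from the step from GFPlo to GFPmed. It found 0 of the 6 genes past an adjusted p of 0.05 with limma (background 0.0195%). An unadjusted p under 0.05 was held by 5 of them, with no share of all genes counted at that limit, so this number has no background. On reads this test passed for Il2rb (difference of steps 1.59, adjusted p = 0.0479 from limma-voom, background 0.341%), but not with the authors' size factors on the same reads (adjusted p = 0.163 from limma-voom).

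Over all 9 samples, a trend with the order of the GFP groups was tested by an exact permutation test (two-sided). The exact permutation p was 0.00119 for Il2ra, Il2rb and Nrp1, the smallest the design allows. For Foxp3 the exact p was 0.019, for Lrrc32 0.0214 and for Gpr83 0.0881. A low p in this test does not require a rise at each step, and mean GFPmed was under mean GFPlo for Foxp3 and Lrrc32. Arranged only within replicate numbers, the exact permutation p was 0.0648 for Foxp3, 0.0463 for Lrrc32 and 0.111 for Gpr83. It was 0.00926 for Il2ra, Il2rb and Nrp1. A permutation test of 3 samples against 3 cannot go below 0.1.

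Ratios of the reads of 2 genes within a sample do not depend on depth or scaling. The 15 pairs were compared after the values were seen, and exact permutation p-values for a trend were adjusted over them. In GFPlo the 15 to 21 reads of Il2ra per sample did not exceed the 24.2 to 38.7 reads that a gene of its exonic length would draw at the pooled level of olfactory and vomeronasal receptor genes, given below. Ratios with Il2ra in GFPlo therefore rest on a gene that was not above the level estimated for stray reads. There were 7.40, 7 and 6.48 Foxp3 reads per Il2ra read in GFPlo, 2.84, 2.59 and 2.04 in GFPmed and 1.17, 1.02 and 1.12 in GFPhi samples. Each group was separate from the others, and in GFPhi the reads of both genes were close to equal in number (exact permutation p = 0.00119, adjusted p = 0.00223). Il2ra reads per Il2rb read averaged 0.154 ± 0.0177 in GFPlo, 0.185 ± 0.0214 in GFPmed and 0.156 ± 0.0322 in GFPhi samples (SD, n = 3). These ranges overlapped (exact permutation p = 0.996, adjusted p = 0.996), but with the GFPlo ratio limited in this way the trend says little about how the levels of these genes relate. Nrp1 reads per Gpr83 read fell from 0.401 ± 0.0719 over 0.197 ± 0.0397 to 0.108 ± 0.0415 (exact permutation p = 0.00238, adjusted p = 0.00357). Of the 15 pairs, 11 had an adjusted p of at most 0.05. This count includes pairs with Il2ra and largely follows from the courses of the single genes, so it adds no independent result.

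**Figure D3:**
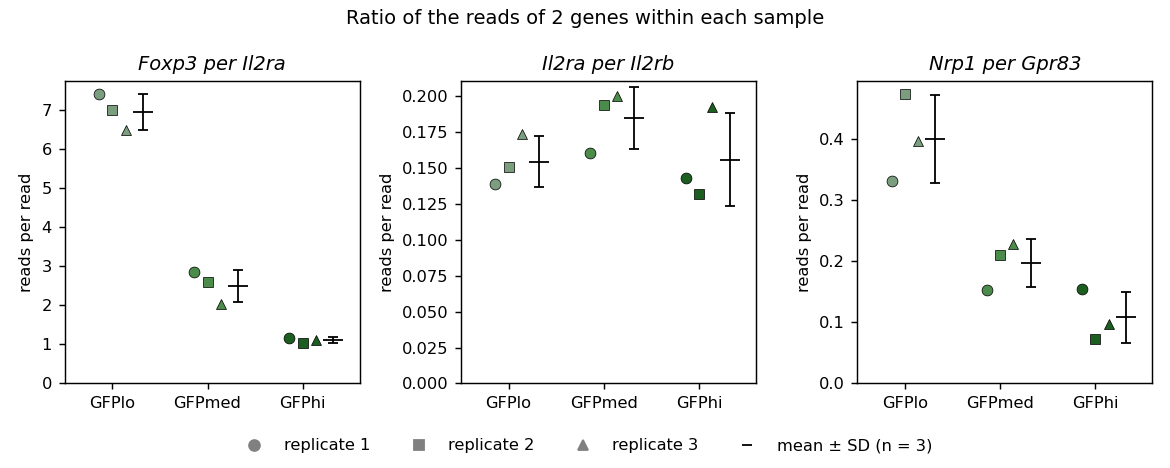
Reads of one gene per read of another within each sample (y axis, from 0) for 3 pairs of genes in the 3 GFP groups, with the mean and SD beside the points. Foxp3 per Il2ra drops from 6.96 on average in GFPlo, where Il2ra was not above the level estimated for stray reads, to 1.10 in GFPhi. Il2ra per Il2rb overlaps between groups, and mean Nrp1 per Gpr83 drops at each step.

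Levels were compared between genes only per length, as RPKM, here reads per kb of exon not shared with another gene, scaled to the library total. In GFPlo the order was Gpr83 (21.9 ± 1.39, SD, n = 3), Foxp3 (6.04 ± 0.198), Nrp1 (4.58 ± 0.623), Il2rb (3.29 ± 0.0477), Lrrc32 (1.47 ± 0.656) and Il2ra (0.381 ± 0.0381), and no neighbours in this order overlapped. In GFPhi Il2rb came first (48.7 ± 5.75), followed by Gpr83 (30.1 ± 1.47), Foxp3 (14.2 ± 2.21), Il2ra (5.63 ± 0.855), Lrrc32 (3.92 ± 0.642) and Nrp1 (1.70 ± 0.648), again without overlap of neighbours. In GFPmed, Gpr83 came first (33.0 ± 7.23), then Il2rb (7.25 ± 1.22), Foxp3 (5.62 ± 0.650), Nrp1 (3.31 ± 0.200), Lrrc32 (1.29 ± 0.159) and Il2ra (0.999 ± 0.162). There Il2rb overlapped Foxp3, and Lrrc32 overlapped Il2ra. Reads over shared Foxp3 exons may have been counted, and its unshared length may be set too short. The level of Foxp3 on this scale and its place in these orders are therefore uncertain.

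Olfactory and vomeronasal receptor genes, which thymocytes are not known to use, gave an estimate of the level of stray reads on the same scale. Their 1530 genes together had an RPKM of 0.415 to 0.897 in the 9 samples. This pooled level hides their spread, which was not examined, and is not a limit of detection. Il2ra in GFPlo stood at 0.388 to 0.868 times this level of its own sample, so its fold change is set against a level under that estimate. In GFPmed it stood at 1.44 to 1.93 times and in GFPhi at 5.50 to 13.2 times that level. Lrrc32 in GFPlo was at 1.61 to 2.604 times and Nrp1 in GFPhi at 2.76 to 2.92 times. Gpr83 stayed at 26.2 times or more in each sample. Foxp3 stayed at 6.57 times or more, but this multiple also rests on its unshared length and is uncertain.

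**Figure D4:**
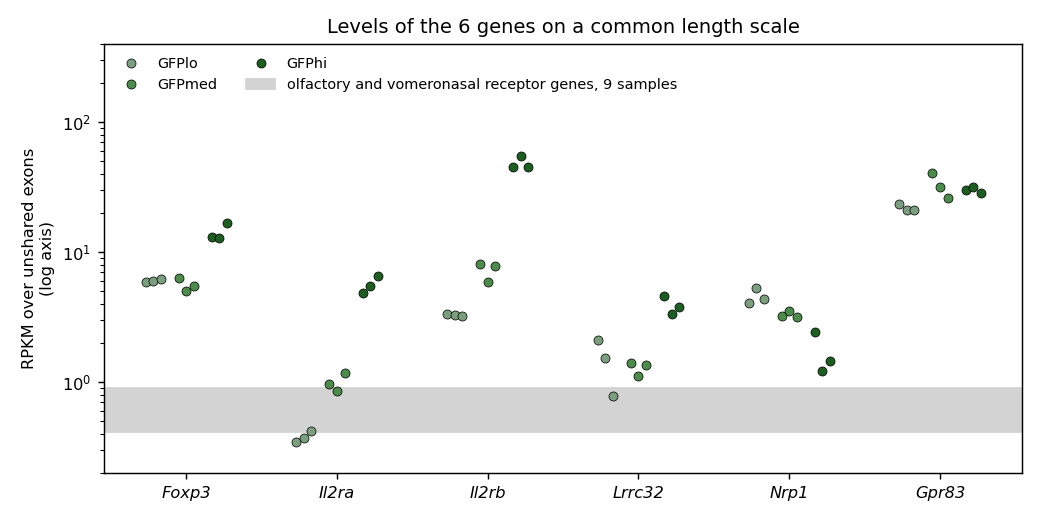
RPKM over unshared exons (log axis) for each of the 6 genes in each sample. The grey band is the range over the 9 samples of the level pooled over 1530 olfactory and vomeronasal receptor genes, not the spread of those genes. Il2ra lies within or under the band in GFPlo and Il2rb passes Gpr83 in GFPhi.

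The genes most like each member were found by Pearson's r of log2(TPM + 1) over the 9 samples among 9946 genes, as a description. Since the samples form 3 groups and share library steps, many genes reach a high r. Foxp3 was closest to Pdcd1 (0.994), Itga4 (0.990) and Gfi1 (0.988). Il2ra was closest to Ikzf4 (0.997), Tnfrsf1b (0.996) and Stat5a (0.995), and Il2rb to Smc4 (0.997), Ikzf4 (0.995) and Tnfrsf1b (0.995). Lrrc32 was closest to Art4 (0.996), Mtmr10 (0.966) and Dcaf17 (0.961). Nrp1 was closest to Cd8b1 (0.972), Fads1 (0.970) and Cnot10 (0.969). Gpr83 had the lowest values, with Cep192 (0.943), Traj22 (0.929) and Hltf (0.916).

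Other genes of the Treg signature were compared between GFPhi and GFPlo. They were listed with earlier results of these data known, so their counts are a description. Of 20 listed, 17 were tested, 9 were called higher and 0 lower (1.26% and 0.404% of all genes tested), 8 were not called, and Tigit, Entpd1 and Klrg1 were too low to test. Their median log2 fold change was 1.66. The largest difference was that of Tnfrsf9, which encodes the costimulatory receptor 4-1BB, with 2.17 TPM in GFPlo, 12.8 in GFPmed and 194 in GFPhi (log2 fold change 5.96, adjusted p = 6.59e-06 from limma). Tnfrsf4, which encodes OX40, followed with 66.8, 218 and 718 TPM (3.41, adjusted p = 7.74e-06 from limma). Tnfrsf1b, which encodes a TNF receptor, had a log2 fold change of 2.77 and the inhibitory receptor gene Ctla4 had 2.72. The Ikaros family genes Ikzf2, which encodes Helios, and Ikzf4 had 2.698 and 2.46. The remaining called genes, named after their values were seen, were Tnfrsf18 (2.03), Nt5e (1.85) and Swap70 (1.66). Between GFPmed and GFPlo, 3 of the 17 were called higher, namely Tnfrsf9 (2.13), Tnfrsf4 (1.68) and Tnfrsf18 (1.02), against 0.0554% of all genes tested.

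Genes of the signature that were not called are given in TPM, whose length includes introns, so their levels were not compared with one another. Il10, which encodes an inhibitory cytokine, averaged 4.66 TPM in GFPlo and 3.66 in GFPhi (log2 fold change -0.28, adjusted p = 0.708 from limma). Izumo1r and Icos had log2 fold changes of 0.58 and 0.45 with adjusted p of 0.0131 and 0.0149 from limma, under the fold limit. Ccr8, which encodes a chemokine receptor, averaged 309, 386 and 372 TPM over GFPlo, GFPmed and GFPhi (adjusted p = 0.258 from limma). These 4 genes were also named after their values were seen.

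Among 16 genes of the IL-2 and STAT5 pathway, 15 were tested, 3 were called higher and 1 lower (1.26% and 0.404% of all genes tested). Cish, a STAT5 target that damps cytokine signals, averaged 25.2, 38.1 and 91.1 TPM (log2 fold change 1.81, adjusted p = 0.000806 from limma). Stat5a and the kinase gene Jak3 had log2 fold changes of 1.12 and 1.07. The call of Jak3 was lost with median-of-ratios scaling (adjusted p = 0.074 from limma) and without GFPhi replicate 2 (log2 fold change 0.94). Bcl2, which encodes a survival factor, was lower, with 60.8, 46.1 and 23.7 TPM (-1.33, adjusted p = 0.00107 from limma). Il2 itself averaged 0.815, 1.48 and 1.49 TPM (adjusted p = 0.778 from limma). The median of the list was 0.17.

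**Figure D5:**
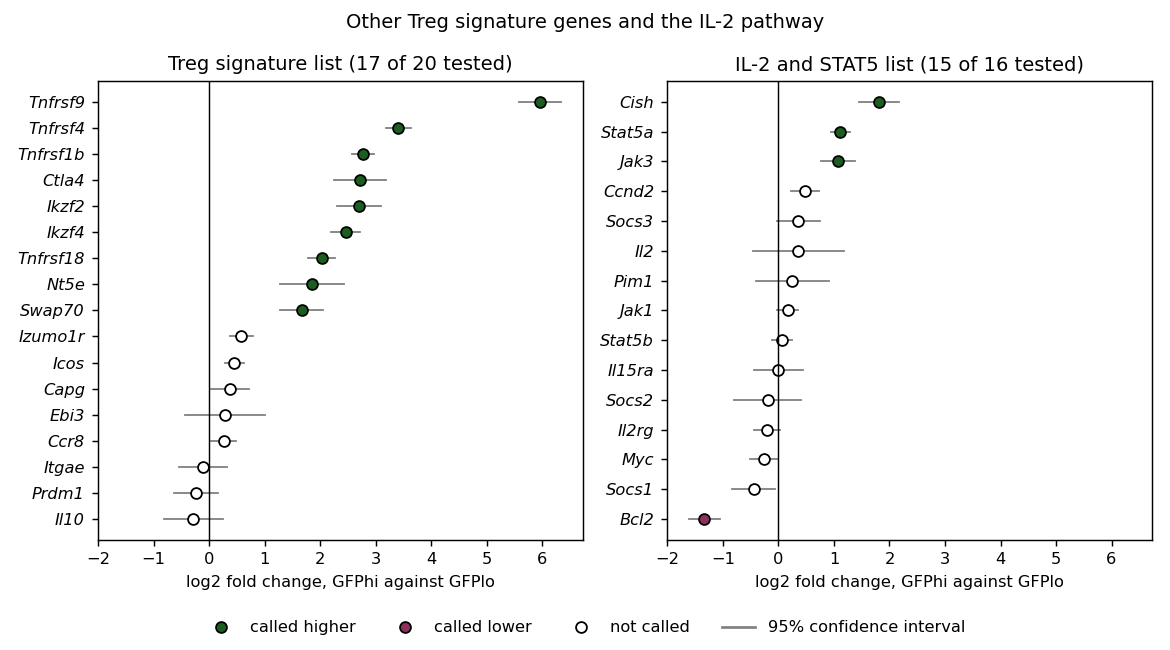
Log2 fold change of GFPhi against GFPlo (x axis) with 95% confidence intervals for the tested genes of the Treg signature list and of the IL-2 and STAT5 list, filled where a gene was called. The first list has 9 genes called higher, led by Tnfrsf9 at 5.96, and the second has Cish, Stat5a and Jak3 higher and Bcl2 lower.

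Of 24 regulators and cofactors of Foxp3, all tested, 1 was called higher and 2 lower (1.26% and 0.404% of all genes tested), with a list median of 0.14. Satb1, a genome organizer, was lower in GFPhi, with 760, 602 and 293 TPM (log2 fold change -1.37, adjusted p = 7.6e-05 from limma). Runx1, which encodes a transcription factor that partners with Foxp3, had -1.08 (adjusted p = 0.00263 from limma), and Tet2, which encodes an enzyme that oxidizes methylated cytosine, had 1.05 (adjusted p = 0.00655 from limma). Of 15 genes of TGF-beta activation and signalling, 13 were tested and 2 were called higher (1.26% of all genes tested), the inhibitor gene Smad7 (1.98, adjusted p = 0.00921 from limma) and Skil (1.05, adjusted p = 0.0049 from limma), with a list median of 0.44. The call of Runx1 was lost with median-of-ratios scaling (log2 fold change -0.9987) and quantile normalization (-0.9963), that of Tet2 without GFPlo replicate 3 (0.95), and that of Skil with median-of-ratios scaling (adjusted p = 0.054 from limma) and without GFPlo replicate 2 (0.9975) or GFPhi replicate 2 (0.97).

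Of 10 genes whose products work with neuropilin, 8 were tested and 0 were called by limma (1.26% higher and 0.404% lower of all genes tested). The list median was -0.29. The unadjusted p was under 0.05 for 3 of the 8. The share of all genes at that limit was not counted, so this number says nothing about the list as a set. On reads limma-voom called 1 of the 8, against backgrounds of 1.6% higher and 0.472% lower. This was Nrp2, named after its values were seen, which averaged 0.456 TPM in GFPlo and 1.28 in GFPhi. Of 6 genes that Treg are known to keep low, 5 were tested, with 1 called higher and 1 lower (1.26% and 0.404% of all genes tested). Il7r, the interleukin-7 receptor gene, was lower in GFPhi, with 200 TPM in GFPlo and 56.1 in GFPhi (log2 fold change -1.81, adjusted p = 6.49e-05 from limma), whereas the cytokine gene Il21 was higher, with 10.3 TPM in GFPlo and 24.6 in GFPhi (1.21, adjusted p = 0.0122 from limma). The call of Il21 was lost with the 2 groups fitted alone, with either rescaling and without GFPlo replicate 2 or GFPhi replicate 3 (adjusted p = 0.052 to 0.076 from limma).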

How the data were processed

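Reads were aligned by the authors with STAR 2.7.11b to GRCm38 with GENCODE genes, identical duplicates were removed, and reads per gene were converted to the deposited TPM. Group means of counts that the authors divided by DESeq2 1.34.0 size factors were deposited as well, a signal used here only to solve for reads. Their fold change, p-value and call columns were not used, and 0 sample columns were left unused. The length behind the deposited TPM equalled the mean transcript span, introns included, for 97.3% of 20121 protein-coding genes (tolerance 1%). TPM and group means together gave whole reads for 41578 genes (100% whole within 0.01 reads), and 400 genes were not solved. PCR reads without molecular identifiers are not independent molecules.

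Log2(TPM + 1) was tested with limma (version 3.58.1, under R version 4.3.3) in 1 model over all 9 samples, eBayes with a trend and Benjamini-Hochberg adjustment over 30693 genes. Because the values are TPM, limma-voom on the reads was an alternative. Trends were tested in Python 3.11.15. On simulated reads for GFPhi against GFPlo with 29533 genes, 172 of 200 genes changed by 2 on the log2 scale were recovered. Of the unchanged genes 18 were called, and 6 were called when none was changed. The changed genes had many reads and a mean TPM of at least 5, with an assumed spread and no replicate effect. Smaller changes, such as those of Foxp3, Lrrc32 and Nrp1, and changes at lower TPM were not simulated. Positions and exons came from an earlier GENCODE release of the same build. Genes named beside the 6 members were up to 6 called genes per list with the largest change, the Nr4a genes, and the 3 genes most like each member (mean TPM of at least 5). The members and lists were chosen with earlier results of these data known.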

Additional observations from a re-analysis of the deposited data

How the results depend on the processing

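Between GFPhi and GFPlo, Il2ra and Il2rb were called under all 21 alternatives, and the count of 9 Treg signature genes stayed between 8 and 11. The 8 came with a filter at a TPM of 5, where 330 of 19012 genes were called higher and 102 lower. The 11 came without the fold limit, where the share of all genes was not counted. The count of called members was 5 with limma-voom on reads, under either scaling to library size. Of 30522 genes, 489 were called higher and 144 lower on reads, and 571 and 125 with the authors' size factors. Limma-voom with the authors' size factors and TPM on exonic length, both chosen after seeing the data, each called 1 member between GFPmed and GFPlo. All genes called there numbered 25 higher and 1 lower of 30522, and 21 and 2 of 35962. Between GFPhi and GFPmed the count was 5 on reads (backgrounds 0.852% and 0.252%). The test of the difference between steps passed for 1 member, Il2rb, on reads (background 0.341%) and for 0 with the authors' size factors. Genes called on the 5 pathway lists numbered 11, and 7 with median-of-ratios scaling. All genes called numbered 387 higher and 124 lower of 30693, and 321 and 69 with that scaling. Without 1 sample at a time Foxp3 ran from 0.99 to 1.18 between GFPhi and GFPlo, Lrrc32 from 0.97 to 1.51 and Nrp1 from -1.11 to -0.87 (log2 fold change, called without GFPhi replicate 1). Lrrc32 was also called with median-of-ratios scaling (1.35), quantile normalization (1.36), reads (1.53) and reads with the authors' size factors (1.58). Nrp1 was called on reads (-1.48), with the authors' size factors (-1.37) and on exonic length (-1.34). It could not be tested at a TPM of at least 5. Without GFPlo replicate 1, Lrrc32 in GFPmed against GFPlo turned to 0.16, from a lowest value of -0.38. Without GFPmed replicate 1, Gpr83 in GFPhi against GFPmed turned to 0.046, from a lowest value of -0.30. The trend p ran from 0.00893 to 0.0643 for Lrrc32 and from 0.0214 to 0.207 for Gpr83 without 1 sample (exact permutation). It passed 0.05 for Lrrc32 without GFPlo replicate 3, GFPhi replicate 1 or GFPhi replicate 3, and came under it for Gpr83 without GFPmed replicate 1. For Foxp3 between GFPhi and GFPmed, the adjusted p was 0.0773 with median-of-ratios scaling and 0.0566 with quantile normalization (limma). The cause of these shifts was not tested.

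Same-numbered samples of different groups deviated together with a mean r of 0.0609 (0.0122 to 0.225), over 0.1 in 1 of 9 pairs. Differently numbered samples had a mean r of -0.0305 (-0.185 to 0.148), over 0.1 in 1 of 18 pairs. With 6 of 9 samples correlating best with their own number, the numbers neither establish nor exclude pairing. With the replicate block, the members called stayed at 3 between GFPhi and GFPlo and came to 2 between GFPhi and GFPmed, where Foxp3 had an adjusted p of 0.05, just over the threshold. All genes called with the block numbered 346 higher and 124 lower of 30693 between GFPhi and GFPlo. Between GFPhi and GFPmed they numbered 126 and 34. The block changed no other call of a member. Within replicate numbers, the trend of Foxp3 had an exact permutation p of 0.0648. Low read numbers limit Il2ra in GFPlo, with 15 to 21 reads per sample, and Lrrc32, with 32 to 74.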
